A study of Homo sapiens with 20 samples.

Results

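Solute carrier (SLC) genes were examined in a chromatin immunoprecipitation and sequencing (ChIP-seq) data set of the transcription factor RUNX1. The RefSeq table of assembly GRCh38.p14 holds 386 protein-coding genes whose symbol is SLC followed by a digit. Of the 26642 RUNX1 peaks, 506 lay in the span of such a gene or within 10 kb of it and are called SLC peaks here. They fell to 250 of the 386 genes, and 136 genes had none. Of the 250 genes, 111 had 1 peak, 74 had 2, 52 had 3 or 4, and 13 had 5 or more, with at most 8 at one gene. The span of an SLC gene was overlapped by 336 of the peaks, while 170 lay outside it. A peak is a position and not an assignment to a gene, since 217 SLC peaks also lay in or within 10 kb of another protein-coding gene. The other 18972 peaks in or within 10 kb of protein-coding genes served as the comparison.

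The cells were of the human line THP-1, which was established from an acute monocytic leukemia. They carried a cassette, inducible by doxycycline, for an shRNA that targets PU.1, itself a transcription factor (knockdown), or for a scramble sequence (control). Both groups received doxycycline. The 12 RUNX1 libraries, of the series' 20 samples, comprised 3 control against 2 knockdown in batch 1 and 3 against 4 in batch 2. The comparison asked how RUNX1 binding differs once PU.1 is reduced. The table measures bound DNA and no RNA, so neither the PU.1 level nor the expression of any carrier was checked, and a line under 1 inducible knockdown is the whole model.

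Solute carriers are membrane proteins that move amino acids, sugars, ions, metals, nucleotides and other small molecules across the cell surface and the membranes of mitochondria, lysosomes and other organelles. Some work as single chains and others as complexes, such as the CD98 heavy chain with its light chains. In monocytes and macrophages they are known for glucose and lactate transport, iron handling and the supply of amino acids to the lysosomal nutrient sensor. RUNX1 and PU.1 are partners at many myeloid regulatory elements. The symbol rule also takes in genes that are named after a carrier and are not carriers themselves, such as SLC4A1AP, an adaptor protein gene with 2 peaks, and SLC2A4RG, a transcription regulator gene with 2 peaks.

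The 12 libraries held 630247 to 1719840 reads in peaks, of which 1.999% to 2.183% lay in SLC peaks. The median SLC peak held 20 to 36 reads in a control library and 27 to 52 in a knockdown library, so single peaks were measured on few reads and small differences were not detectable. Normalised counts below are reads divided by the library's size factor, and n is 6 libraries a group. A pair of values joined by a dash is the lowest and the highest library of a group, control first.

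Promoter sequences were taken from RefSeq (GRCh38.p14), whose promoter table matched 303 of the 386 genes. A peak overlapped a window from 250 bases before to 50 bases after a start at 90 of these genes. This start peak was called lost at 15 genes, gained at 5 and not called at 70. That is 16.7% lost and 5.56% gained, against 19.4% and 2.81% of the 5381 protein-coding genes with a start under a peak. Of the 5 gained, only the call at SLC9B1 was kept in all 12 fits that left out 1 library. Calls of loss over a start could fail too, as at SLC2A5 in 10 of the 12. The 250 bases before the start are shown for 4 genes whose start peak changed, chosen because later results turn on them. SLC3A2 encodes the CD98 heavy chain and lost RUNX1 at the peaks over both of its start regions, at chr11:62855859-62856108 and chr11:62880646-62880895 on the plus strand. The latter peak also covers another start, whose upstream stretch at chr11:62881449-62881698 is not shown. SLC4A4 (chr4:71338770-71339019, plus strand) and SLC22A16 (chr6:110476614-110476863, minus strand) lost it as well, and SLC25A20 (chr3:48898883-48899132, minus strand) gained it. The SLC4A4 start shown lies inside the gene span, and its peak is 232390 bp from the nearest end of the gene. Letters run 5′ to 3′ in the direction of the gene, and capitals mark TGTGGT or TGCGGT, the RUNX core, and GAGGAA, the PU.1 core, on either strand.
SLC3A2 upstream start: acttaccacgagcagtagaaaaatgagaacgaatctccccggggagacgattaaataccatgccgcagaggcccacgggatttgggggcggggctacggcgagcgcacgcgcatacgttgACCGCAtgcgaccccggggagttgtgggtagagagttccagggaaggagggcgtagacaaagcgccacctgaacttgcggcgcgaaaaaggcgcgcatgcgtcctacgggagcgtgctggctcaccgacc
SLC3A2 downstream start: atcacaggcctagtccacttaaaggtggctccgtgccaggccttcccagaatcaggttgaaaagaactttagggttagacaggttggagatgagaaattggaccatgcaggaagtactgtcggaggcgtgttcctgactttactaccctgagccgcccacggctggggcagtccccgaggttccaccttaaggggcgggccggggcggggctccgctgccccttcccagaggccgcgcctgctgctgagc
SLC4A4 start: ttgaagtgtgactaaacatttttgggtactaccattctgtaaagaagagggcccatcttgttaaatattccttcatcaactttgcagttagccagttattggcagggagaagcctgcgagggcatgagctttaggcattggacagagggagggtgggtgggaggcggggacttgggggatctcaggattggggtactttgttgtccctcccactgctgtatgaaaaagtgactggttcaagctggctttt
SLC22A16 start: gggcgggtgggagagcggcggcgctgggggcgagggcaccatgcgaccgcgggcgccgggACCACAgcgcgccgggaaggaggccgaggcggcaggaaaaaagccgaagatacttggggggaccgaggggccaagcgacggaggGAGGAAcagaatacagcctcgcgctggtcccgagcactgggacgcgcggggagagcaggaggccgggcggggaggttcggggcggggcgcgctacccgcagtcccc
SLC25A20 start: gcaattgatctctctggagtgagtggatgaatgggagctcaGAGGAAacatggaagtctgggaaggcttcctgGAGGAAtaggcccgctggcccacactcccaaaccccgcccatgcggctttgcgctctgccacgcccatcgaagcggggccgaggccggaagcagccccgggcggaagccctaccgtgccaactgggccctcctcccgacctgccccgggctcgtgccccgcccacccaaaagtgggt

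In the whole promoter windows, from 250 bases before to 50 bases after the start, TGTGGT was held by 10.8% of the 415 SLC promoters and 11.3% of the 21987 promoters of all protein-coding genes. TGCGGT was held by 8.43% and 8.52%, and GAGGAA by 22.2% and 28%. In the 110 SLC promoters under a peak the shares were 9.09% for TGTGGT, 14.5% for TGCGGT and 16.4% for GAGGAA. In the promoters of protein-coding genes under a peak they were 11.7%, 14.4% and 28%. Of the 19 windows under a lost peak, 1 held TGTGGT, 2 held TGCGGT and 4 held GAGGAA. Of the 7 windows under a gained peak, 1 held TGTGGT, 1 held TGCGGT and 2 held GAGGAA. The stretches printed above for the downstream SLC3A2 start and SLC4A4 held none of the motifs. A match describes the letters only.

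RUNX1 moved in both directions at SLC genes, with nearly as many peaks gained as lost. Size factors were set on the peak counts themselves, so gained and lost are relative to the bulk of all peaks. A rise or fall shared by all peaks would not show. The knockdown gained 94 and lost 98 of the 506 SLC peaks, while 314 did not pass the test. The called share was 37.9% (18.6% gained and 19.4% lost). Of all peaks, 42.0% were called (21.3% gained and 20.7% lost), and of the other peaks in or near protein-coding genes 39.2% (19.3% gained and 19.9% lost). The SLC peaks thus sat near the background of gene peaks in both directions. The median log2 fold change, knockdown over control, was -0.07 at SLC peaks, -0.05 at other gene peaks and -0.03 at all peaks. A change above 2-fold was found at 33 gained and 35 lost SLC peaks (6.52% and 6.92%), against 8.86% and 8.2% of all peaks and 7.73% and 6.86% of other gene peaks.

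**Figure D1:**
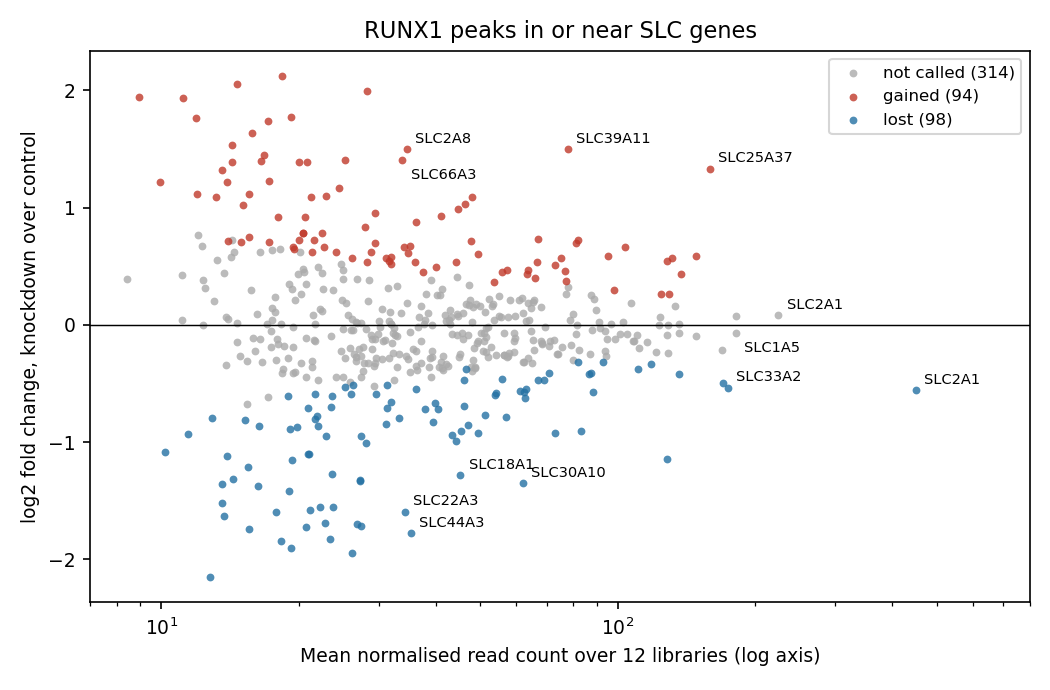
Each point is 1 of the 506 SLC peaks, with its mean normalised read count over 12 libraries on the x axis (log axis) and its log2 fold change, knockdown over control, on the y axis. The 94 gained and 98 lost peaks lie on both sides of 0 over most of the range of levels, and the strongest peak, in SLC2A1, was lost.

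The extremes were weak peaks, singled out after their values were seen. The largest gain lay in SLC25A30, a mitochondrial carrier gene, where the control libraries held 2.11 to 10.2 normalised counts (median 7.55) and the knockdown libraries 22.4 to 34.4 (median 32), a log2 fold change of 2.12 ± 0.32 (SE, adjusted p = 7.8e-10, DESeq2). The largest loss lay in SLC4A5, which encodes a sodium bicarbonate cotransporter, with 13.8 to 29.5 counts in the control (median 20.6) and 0.913 to 7.27 in the knockdown (median 5.98), at -2.15 ± 0.35 (adjusted p = 1.2e-08). The groups did not overlap at either peak.

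All 192 called SLC peaks had the same sign within both batches, as did 99.9% of all called peaks, and the joint call itself uses both batches. Of the 506, 42 (8.3%) were called, in the same direction, within each batch alone, against 10.4% of all peaks. Of the 18972 other gene peaks, 1708 were. Within batch 1, 16 SLC peaks were gained (3.16%) and 34 lost (6.72%), against 5.38% and 6.61% of all peaks. Within batch 2, 52 were gained (10.3%) and 61 lost (12.1%), against 12.8% and 13.1% of all peaks. The shares of other gene peaks were 4.85% gained and 5.6% lost within batch 1, and 11.4% and 12.1% within batch 2. Every knockdown library lay above every control library of its batch at 51 SLC peaks (10.1%, against 14.4% of all peaks) and below at 66 (13%, against 13.9%). Of other gene peaks, 12.8% lay above in this way and 12.8% below. The genotype by batch product tests whether the effect differed between batches. After adjustment in DESeq2 it passed at 0 SLC peaks and at 0 of all peaks. Its unadjusted p was under 0.05 at 15 SLC peaks (2.96%, against 2.51% of all peaks and 2.34% of other gene peaks). With 2 to 4 libraries per genotype and batch, this does not show equal effects.

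**Figure D2:**
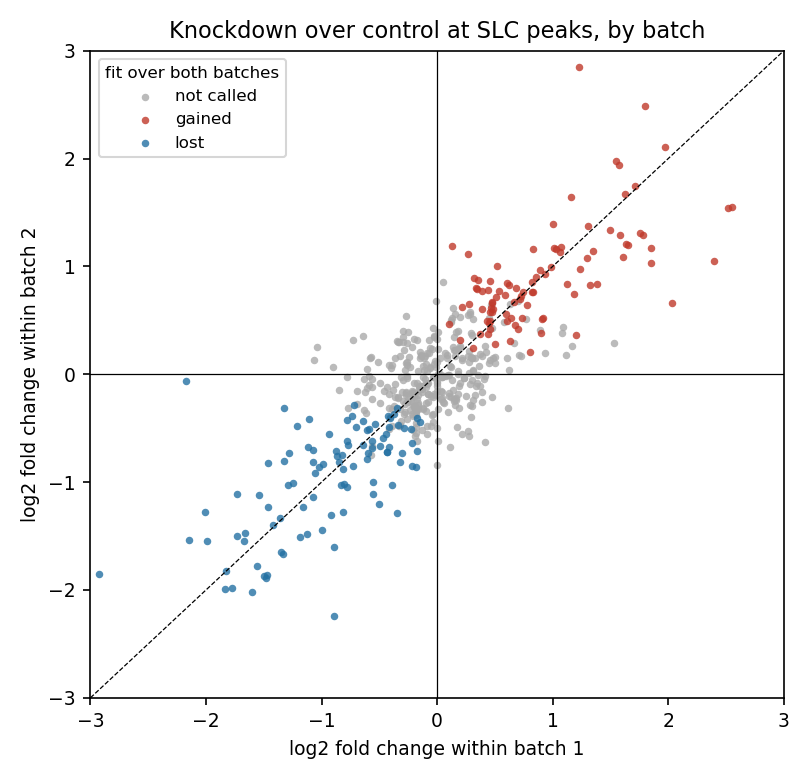
Each point is 1 SLC peak, with its log2 fold change fitted within batch 1 on the x axis and within batch 2 on the y axis, coloured by the call over both batches, and the dashed line marks equal values. The 94 gained peaks lie in the upper right and the 98 lost peaks in the lower left.

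Losses outnumbered gains at gene ends and did not do so away from them. Of the 181 SLC peaks within 1 kb of either end of any protein-coding gene, 16 were gained (8.84%) and 29 lost (16%), and the median log2 fold change was -0.14. Other gene peaks at gene ends were gained at 6.11% and lost at 19.1%, with a median of -0.17. Of the 325 SLC peaks farther from any end, 78 were gained (24%) and 69 lost (21.2%), with a median of 0.01. Other gene peaks at that distance were gained at 25.9% and lost at 20.3%, with a median of 0.07. The SLC peaks followed the other gene peaks in this split. Directly over an SLC start lay 91 peaks, of which 5 were gained and 16 lost. None of them changed by more than 2-fold, and the like share over the starts of all genes was not taken. Such changes were rare at gene ends in general, with 223 called above 2-fold among the 6315 other gene peaks there.

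By what the carriers move, amino acid transporter genes held the most peaks, 88 at 43 of 64 genes, with 21 gained and 20 lost. Ion exchangers followed with 71 peaks (13 gained, 15 lost), then sugar and carboxylate transporters with 70 (16 gained, 13 lost) and mitochondrial carriers with 69 (11 gained, 10 lost). Transporters of metals and heme had 55 peaks, of which 8 were gained and 14 lost, and the lowest median log2 fold change of the 10 classes, -0.22. Their lost share was 25.5%, beside 22.7% for amino acid transporters, 21.1% for ion exchangers and 19.9% for other gene peaks, and the classes were not tested against each other. Nucleotide sugar and acetyl-CoA transporters had 46 peaks (6 gained, 8 lost, median -0.13), and carriers of peptides, lipids and other substrates 48 (6 gained, 7 lost, median -0.14). The remaining classes had 15 to 23 peaks each, with 3 to 5 gained and 3 or 4 lost.

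**Figure D3:**
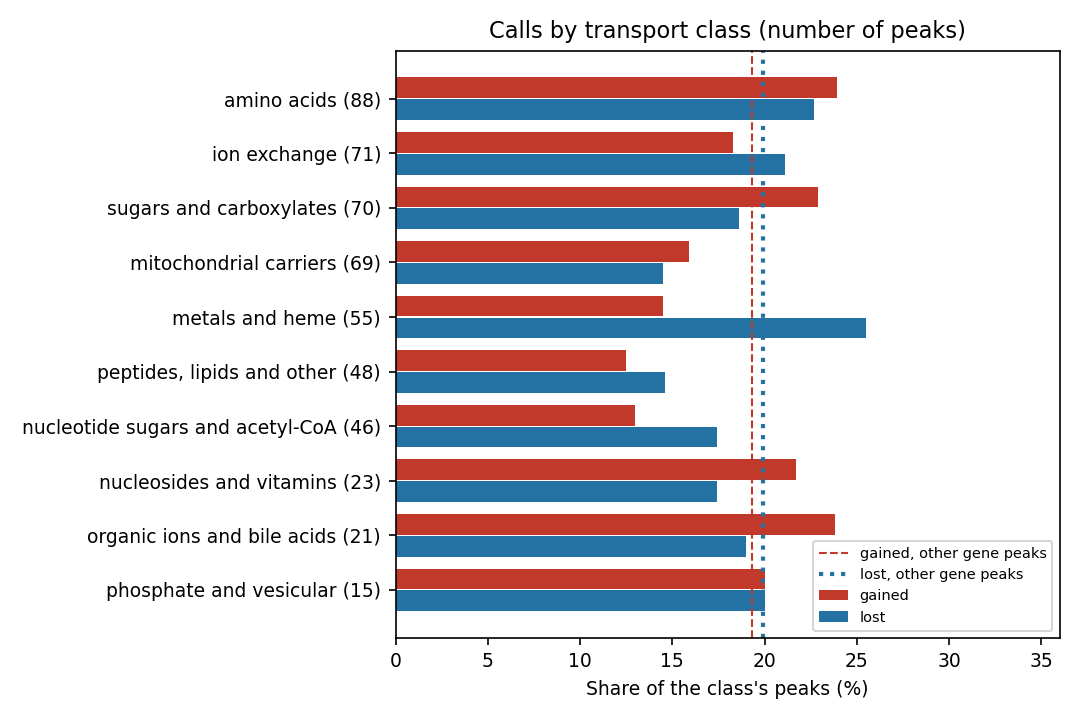
Bars give the share of each transport class's peaks that was gained (red) or lost (blue), with the number of peaks in parentheses. Vertical lines give the shares of the other peaks in or near protein-coding genes, 19.3% gained (dashed) and 19.9% lost (dotted). Lost shares run from 14.5% to 25.5% over the classes, and their differences were not tested.

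Named changes were chosen among called peaks with at least 30 normalised counts on average and no overlap within either batch. That choice fixed the separation of the groups within each batch, so the separation adds no support at these peaks. The 10 largest gains lay at 9 genes of zinc, sugar, iron, bile acid, proton, glutamine, nucleotide sugar and choline transport. The largest was in SLC39A11, which encodes the zinc transporter ZIP11. At chr17:73072387-73073306 the control libraries ran from 24.7 to 62.4 normalised counts (median 39.5) and the knockdown libraries from 93.7 to 133 (median 114), a log2 fold change of 1.50 ± 0.16 (SE, adjusted p = 2.9e-19, DESeq2). All knockdown libraries were above all control libraries. SLC39A11 had 6 peaks, 4 of them gained and none lost. One of the others, at chr17:72955215-72956141, rose from 20.8–29.3 (median 25.1) to 40.4–55.0 (median 46), by 0.88 ± 0.19 (adjusted p = 3.4e-05). The peak over the gene's start did not pass the test, at 0.16 ± 0.17.

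SLC25A37 encodes mitoferrin-1, the mitochondrial iron importer, and carried the strongest of the named gains. At chr8:23567025-23568548, inside the gene, counts were 72.6 to 97.7 in the control (median 92.8) and 192 to 278 in the knockdown (median 221), at 1.33 ± 0.12 (adjusted p = 6.8e-27). The groups stood clear of each other, and the 3 other peaks at the gene did not pass the test (-0.35 to 0.35). The gain was 1.30 within batch 1 and 1.37 within batch 2.

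SLC2A8 encodes the glucose transporter GLUT8. A peak 911 bp outside its span and near GARNL3 rose from 10.2–31.2 counts (median 17.2) to 45.3–60.1 (median 49.3), by 1.50 ± 0.22 (adjusted p = 1.7e-10). In SLC66A3 a peak rose from 9.38–33 (median 17) to 38.2–60.6 (median 47.9), by 1.41 ± 0.23 (adjusted p = 1.7e-08). Neither peak had overlapping groups. SLC9A5 encodes a sodium-proton exchanger, and a peak 4438 bp from it, over an end of PLEKHG4, rose by 1.03 ± 0.19. SLC38A3, which encodes a glutamine transporter, rose by 0.98 ± 0.19 at a peak inside the gene. SLC44A1 encodes a choline transporter, and its peak at chr9:105405300-105406295 rose by 0.73 ± 0.14 from 41.6–61.1 counts (median 47.9) to 73.9–92.2 (median 84.1).

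Both subunits of the organic solute transporter, the bile acid and steroid exporter made of SLC51A and SLC51B, had 1 nearby peak, and both were gained. Near SLC51A, 2053 bp outside the gene and close to PCYT1A, counts were 25.3 to 35.1 in the control (median 31.4) and 56.6 to 74.8 in the knockdown (median 67.1), at 1.09 ± 0.17 (adjusted p = 4.3e-09). Near SLC51B, 2066 bp outside and close to RASL12, a weak peak held 2.79 to 8.67 in the control (median 5.23) and 15.5 to 39.1 in the knockdown (median 21.8), at 2.05 ± 0.37 (adjusted p = 3.1e-07). The groups did not overlap at either. SLC51B was named after its values were seen.

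The 10 largest losses, chosen by the same rule of no overlap within either batch, fell in 10 genes. SLC44A3, of the choline transporter-like family, had the largest. Its peak at chr1:94831455-94832199 held 44.2 to 61.4 counts in the control (median 55.2) and 9.13 to 19.8 in the knockdown (median 16.2), at -1.78 ± 0.20 (adjusted p = 3.8e-16). The groups lay far apart, while a stronger peak of the same gene had medians of 97.6 and 96.0 and a log2 fold change of 0.01 ± 0.12. Near SLC22A3, which encodes the organic cation transporter OCT3, a peak 9769 bp outside the span fell from 46.9–59.0 counts (median 50.3) to 5.94–32.6 (median 15.2), at -1.59 ± 0.22 (adjusted p = 3.0e-11). Knockdown libraries varied widely there and stayed below the control.

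SLC38A1 encodes the glutamine transporter SNAT1 and lost RUNX1 at 2 of 4 peaks. Its strong internal peak at chr12:46217671-46219311 held 156 to 207 counts in the control (median 179) and 67.2 to 89.2 in the knockdown (median 80.2), at -1.15 ± 0.11 (adjusted p = 6.2e-22). No library of one group reached the range of the other, and the choice of the peak had required this within each batch. The peak over its start had medians of 66.7 and 67.5 and a log2 fold change of -0.02 ± 0.14. A weaker peak beside the strong one, named after its values were seen, fell by 1.52 ± 0.33 (adjusted p = 2.3e-05).

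Metal and monoamine carriers were among the other losses. SLC30A10 encodes a manganese exporter, and its only peak, inside the gene, fell from 67.6–111 counts (median 89.5) to 26.1–39.5 (median 36.9), at -1.35 ± 0.16 (adjusted p = 1.2e-15). SLC18A1 encodes the vesicular monoamine transporter VMAT1, and a peak 3006 bp outside it, near ATP6V1B2, fell from 50.7–73.7 (median 63.9) to 18.3–40.4 (median 24.4), at -1.28 ± 0.18 (adjusted p = 5.0e-11). Neither peak had overlapping groups. In SLC25A24, which encodes a mitochondrial ATP-magnesium and phosphate carrier, counts of 88.5 to 102 (median 94.1) became 42.9 to 56.1 (median 52.9), at -0.92 ± 0.13 (adjusted p = 1.1e-10).

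SLC66A1 encodes a lysosomal exporter of cationic amino acids, and the peak inside it fell by 0.99 ± 0.19. SLC38A12, of the amino acid class, fell by 0.94 ± 0.20 at an internal peak. A pair of start peaks completes the named losses. Both lie inside the gene span, 232390 bp (SLC4A4) and 12996 bp (SLC12A9) from the nearest end of the gene. SLC4A4, which encodes a sodium bicarbonate cotransporter and whose promoter is printed above, fell from 57.2–69.8 counts (median 65.0) to 20.2–41.9 (median 36.5), at -0.92 ± 0.17 (adjusted p = 3.9e-07). SLC12A9, of the cation-chloride cotransporter family, fell from 51.8–66.8 (median 60.3) to 20.5–47.5 (median 30), at -0.91 ± 0.18 (adjusted p = 3.5e-06). At SLC12A9 the fall was -0.51 within batch 1, where it did not pass the test, and -1.20 within batch 2. The named changes at SLC38A3, SLC35D4, SLC44A1, SLC38A12 and the SLC39A11 peak starting at 72955215 were not called within batch 1 either. Their adjusted p there was 0.0508 to 0.15 (DESeq2).

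**Figure D4:**
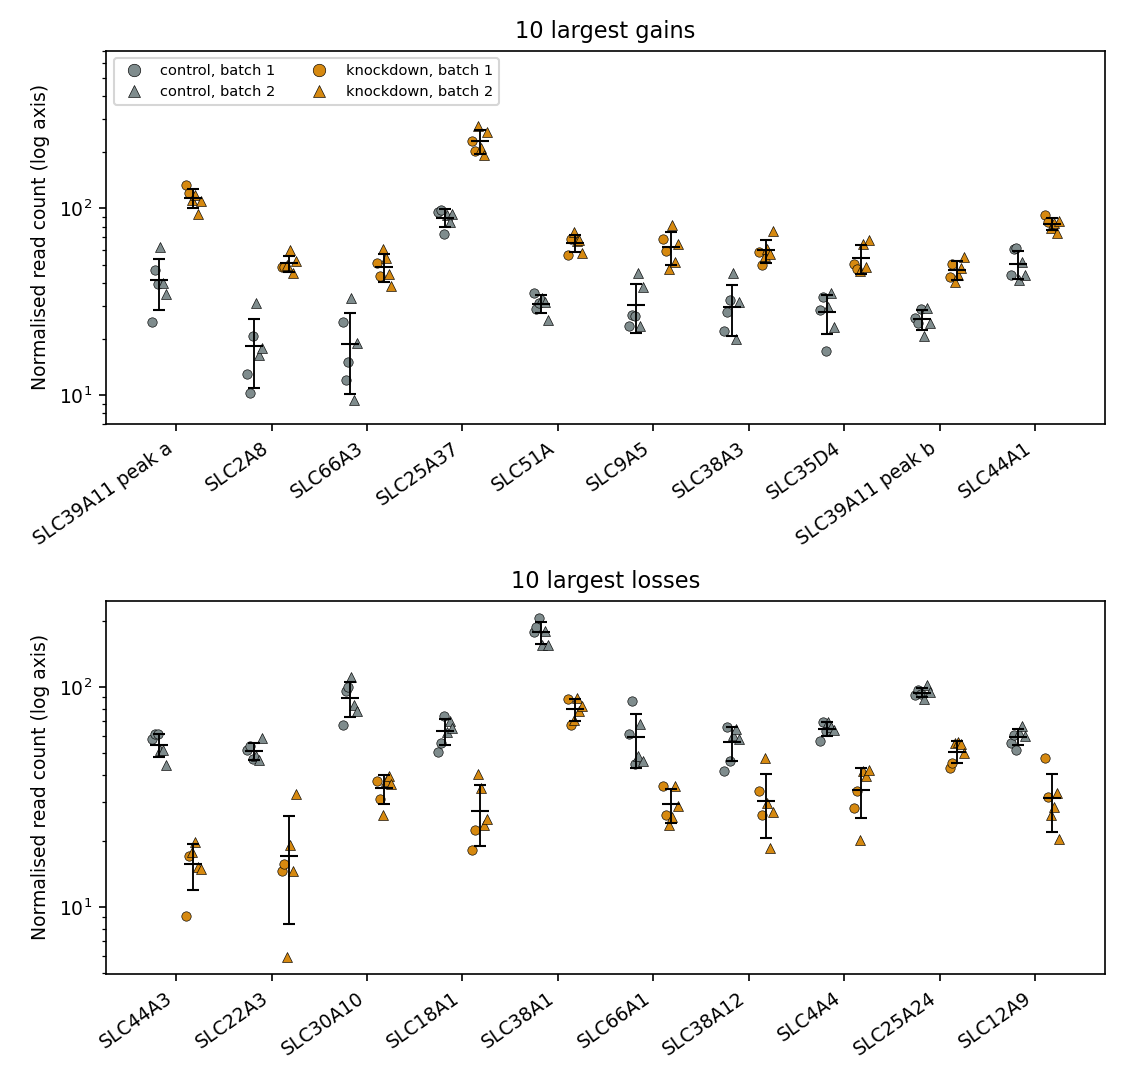
Normalised read counts (log axis) of the 12 libraries at the 10 largest gains (top) and 10 largest losses (bottom), in grey for control and orange for knockdown, with circles for batch 1, triangles for batch 2 and black bars for the mean ± SD of 6 libraries. Peak a of SLC39A11 starts at 73072387 and peak b at 72955215. Peaks without overlap between the groups within either batch were chosen for the plot.

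SLC2A1, which encodes the glucose transporter GLUT1, carried the strongest peaks of all SLC genes and lost RUNX1 at 1 of 8. The strongest SLC peak, at chr1:42930645-42933341 inside the gene, held 507 to 557 counts in the control (median 545) and 333 to 401 in the knockdown (median 359), at -0.56 ± 0.07 (adjusted p = 8.6e-15). The ranges were well apart and the fall was -0.61 within batch 1 and -0.51 within batch 2. The second strongest peak, also inside SLC2A1, held 191 to 246 (median 213) and 209 to 278 (median 230), at 0.08 ± 0.08, and overlapped between the groups. The other 6 peaks at the gene, the start included, ran from -0.33 to 0.09 and did not pass the test. Of the other strongest SLC peaks, those over SLC50A1 (sugar transport, 0.08 ± 0.10) and SLC1A5 (glutamine uptake, -0.07 ± 0.09) did not pass the test. The peak over SLC33A2, which also overlaps or nears GPT, RECQL4, PPP1R16A and LRRC14, was lost at -0.53 ± 0.14 (adjusted p = 0.000373), with overlapping groups of 156 to 370 (median 176) and 97.9 to 194 (median 123).

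Of the 250 SLC genes with a peak, 134 had a called one, with gains only at 52 (20.8%), losses only at 59 (23.6%) and both at 23 (9.2%). Over all 12636 protein-coding genes with a peak these shares were 19.3%, 24.5% and 8.04%. SLC45A4 had the most calls, 4 lost and 2 gained of 8 peaks. Its lost peaks ran from -1.10 to -0.59 over the span and the flank at the lower coordinates, and its gained peaks, at 0.72 ± 0.31 and 0.53 ± 0.15, lay at the other end and beyond. The strongest of its lost peaks fell from 83.2–128 counts (median 111) to 51.1–71.8 (median 55.5), at -0.90 ± 0.14 (adjusted p = 6e-10). The gain at 0.72 and the weakest loss, at -0.59 ± 0.24, were lost as calls in 9 and 7 of the 12 fits that left out 1 library, with adjusted p up to 0.226 and 0.148.

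SLC6A6, which encodes the taurine transporter, had 2 gains and 1 loss in 6 peaks. Its peak at chr3:14471121-14472933 rose from 5.58–16.4 counts (median 11.7) to 33.7–63.0 (median 42.6), by 1.998 ± 0.267 (adjusted p = 3e-12), while the peak 4458 bp outside the span fell by 0.86 ± 0.25 (adjusted p = 0.00236). SLC9A9, an endosomal sodium-proton exchanger, had gains of 1.94 ± 0.45 and 1.09 ± 0.33 and a loss of -1.31 ± 0.31 inside its span, all at peaks with medians under 21 counts. SLC25A20, the carnitine-acylcarnitine carrier of mitochondria, lost RUNX1 inside the gene and gained it over the start. One internal peak fell from 28.8–51.2 counts (median 42.4) to 7.24–15.5 (median 11.2), at -1.95 ± 0.24 (adjusted p = 1e-13), and the other was at -1.27 ± 0.24. Over the start, counts of 37.2 to 63.4 (median 44) became 54.8 to 73.1 (median 62.8), at 0.45 ± 0.16 (adjusted p = 0.0151). The internal ranges were far apart and the start ranges overlapped. The start call was lost without any 1 of control replicates 2 and 6 and knockdown replicates 1 and 2 (adjusted p up to 0.0613).

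SLC37A2, the glucose 6-phosphate exchanger, had a gain and a strong loss close together inside the gene. Its peak at chr11:125069802-125070356 rose from 5.27–13.9 counts (median 7.18) to 15.5–22.6 (median 19.8), by 1.22 ± 0.32 (adjusted p = 0.00067). The peak at chr11:125072342-125072925 fell from 21.1–44.9 (median 32.2) to 5.10–17.2 (median 10.9), at -1.58 ± 0.28 (adjusted p = 3e-07). Both pairs of ranges were apart. Another peak of the gene fell by 0.61 ± 0.23, a call that was lost in 5 of the 12 fits without 1 library (adjusted p up to 0.137).

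**Figure D5:**
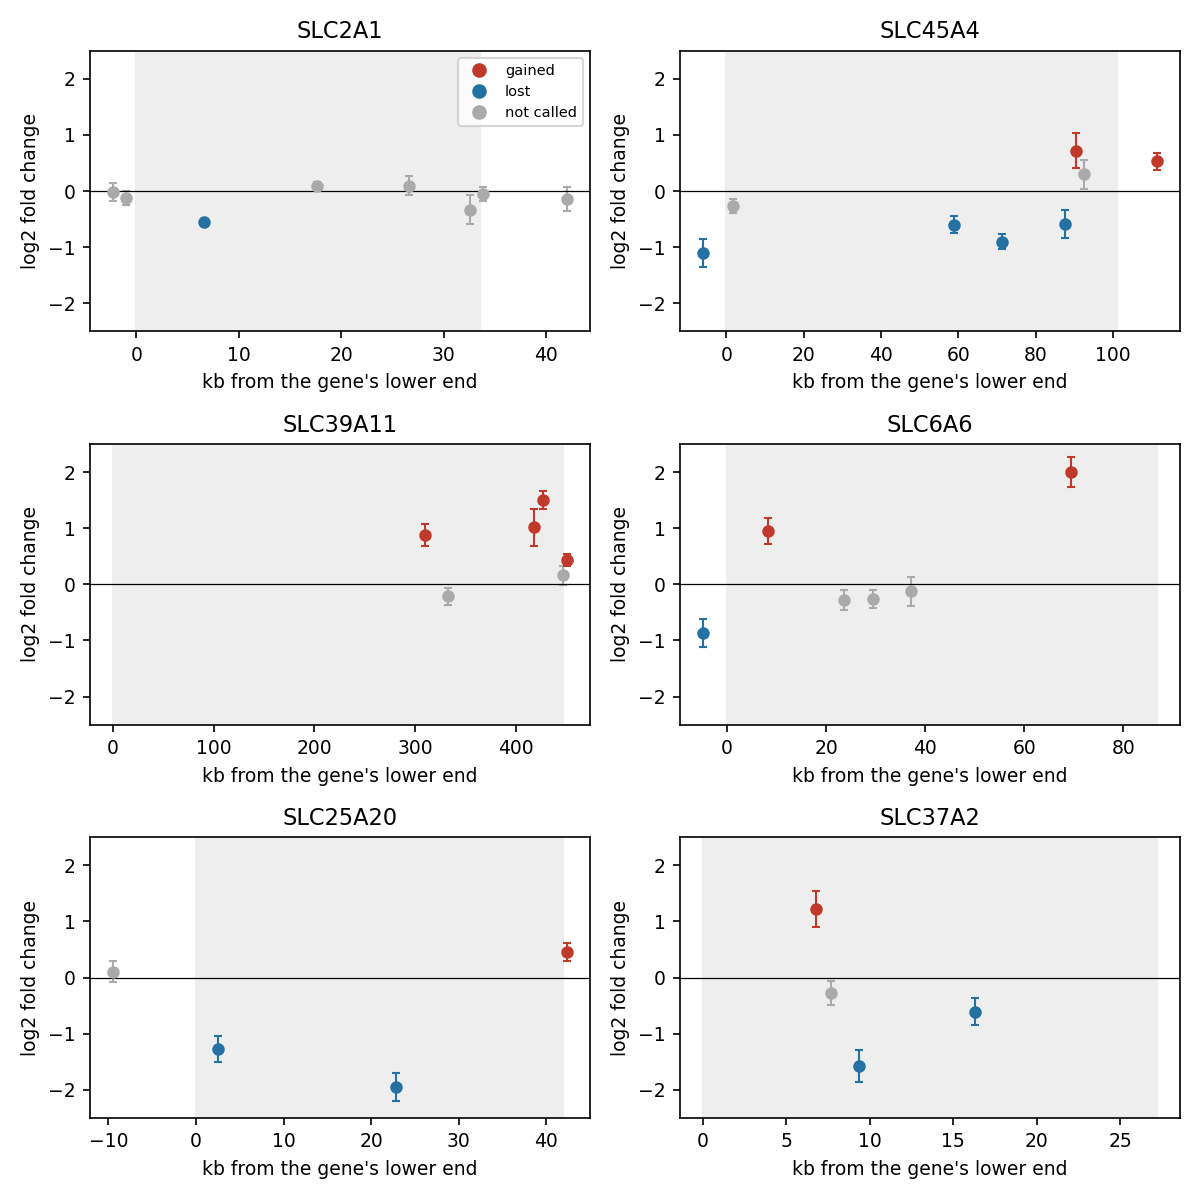
Log2 fold change ± SE of each peak (knockdown over control) against its distance in kb from the lower-coordinate end of 6 SLC genes, with the gene span shaded. SLC2A1 has 1 lost peak among 8, SLC39A11 has 4 gained peaks, and SLC45A4, SLC6A6, SLC25A20 and SLC37A2 each have peaks on both sides of 0.

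SLC22A16, a carnitine transporter gene with 7 peaks, lost RUNX1 over its start (-0.63 ± 0.15, adjusted p = 0.000165) and gained it at 1 internal peak (0.92 ± 0.28, adjusted p = 0.0032). At the start, counts of 56.9 to 93.7 (median 74.9) became 42.9 to 59.9 (median 45.7), and its upstream sequence, printed above, held both TGTGGT and GAGGAA. SLC14A2, a urea transporter gene, had 2 gains in 6 peaks. The larger, at chr18:45631791-45632270, rose from 1.17–10.4 counts (median 4.55) to 14.5–21.4 (median 17.1), by 1.94 ± 0.40 (adjusted p = 8.9e-06), with the groups apart. The other, at 0.52 ± 0.20, was lost as a call in 6 of the 12 fits without 1 library (adjusted p up to 0.0846). SLC35D4, of the nucleotide sugar class, had 3 gains in 6 peaks (0.59 to 0.93). Its largest gain rose from 17.3–35.2 counts (median 29) to 46.3–68.0 (median 49.3), by 0.93 ± 0.19 (adjusted p = 1.3e-05), and lies within 10 kb of CABLES1 or inside it.

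SLC3A2, the heavy chain of the CD98 transporters, had no gained peak. The peak over its downstream start fell from 60.0–87.9 counts (median 70.6) to 36.3–48.2 (median 40.6), at -0.79 ± 0.15 (adjusted p = 2.7e-06). The peak over its upstream start fell from 110–133 (median 128) to 81.1–101 (median 98.6), at -0.37 ± 0.11 (adjusted p = 0.00256). The groups did not overlap at either peak. The surrounding peaks were shifted as well, and the median log2 fold change in the 10 Mb window was -0.35. After centring on it the downstream peak kept its call (adjusted p = 0.0127) and the upstream peak did not (adjusted p = 0.872).

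SLC7A5, the large neutral amino acid light chain LAT1, gained RUNX1 at both of its peaks. They rose from 33.8–60.7 counts (median 48.8) to 55.9–75.2 (median 65.7), by 0.47 ± 0.16 (adjusted p = 0.0128), and from 17.9–52 (median 22.1) to 29.2–50.3 (median 46.4), by 0.67 ± 0.21 (adjusted p = 0.0051). The ranges overlapped at both. The first call was lost without knockdown replicate 1, control replicate 5 or control replicate 6 and the second without control replicate 6 (adjusted p up to 0.059 and 0.0611). SLC7A7, the light chain y+LAT1, had 1 gain over its start (0.53 ± 0.22, adjusted p = 0.0418), a call lost in 8 of the 12 fits without 1 library. SLC7A8, the light chain LAT2, named after its values were seen, had 1 gain over its start (0.37 ± 0.16, adjusted p = 0.0451), a call lost in 5 of these fits (adjusted p up to 0.194). SLC7A11, the light chain of the cystine-glutamate exchanger, fell at an internal peak from 13.9–26.5 counts (median 17.3) to 5.48–14 (median 6.26), at -1.36 ± 0.32 (adjusted p = 0.000135).

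Of a list of 28 SLC genes with known roles in myeloid cells or in leukemia metabolism, 22 had a peak. Their 61 peaks held 11 gains (18%) and 8 losses (13.1%), against 19.3% and 19.9% of other gene peaks, with a median log2 fold change of -0.07, close to that of all SLC peaks. A called peak was found at 13 of the 22 genes. Over all 12636 protein-coding genes with a peak, 19.3% had gains only, 24.5% losses only and 8.04% both. No peak was found in or within 10 kb of SLC15A3, SLC2A3, SLC40A1 (the iron exporter ferroportin), SLC22A4, SLC46A1 and SLC30A1. Peaks were present and none was called at SLC11A1 (the phagosomal metal transporter NRAMP1), SLC15A4, SLC2A9, SLC1A5, SLC16A1, SLC29A3, SLC39A8, SLC48A1 and SLC25A38.

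SLC16A3, the lactate exporter MCT4, had 3 gains in 5 peaks. The peak at the end of the gene at chr17:82238114-82240039 rose from 52–75.4 counts (median 66.7) to 68.9–101 (median 90.4), by 0.46 ± 0.14 (adjusted p = 0.00262), with ranges apart within each batch. The other 2 gains, at 0.62 ± 0.24 and 0.26 ± 0.11, were lost as calls in 6 and 9 of the 12 fits without 1 library (adjusted p up to 0.0688 and 0.111). SLC2A6, the lysosomal hexose transporter GLUT6, had 1 peak 6370 bp outside its span, near CACFD1 and ADAMTS13. It rose from 6.91–31.2 (median 11.2) to 32.6–40.8 (median 35.9), by 1.40 ± 0.26 (adjusted p = 6.2e-07). The groups were apart, with 1 control library close to the knockdown.

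SLC19A1, the reduced folate carrier, fell at 1 of 4 peaks from 16.1–35.8 counts (median 25.9) to 9.25–15.9 (median 10.9), at -1.15 ± 0.27 (adjusted p = 0.000124). SLC36A1, a lysosomal proton-coupled amino acid transporter, rose at 1 of 3 peaks by 0.92 ± 0.30 (adjusted p = 0.00645). That peak lies where the spans of SLC36A1 and SLC36A2 overlap, 308 bp from an end of SLC36A2. SLC38A9, the lysosomal arginine sensor, rose at 1 of 3 by 0.55 ± 0.20 (adjusted p = 0.0204), and SLC43A2, the neutral amino acid transporter LAT4, was lost at 1 of 3, at -0.93 ± 0.34 (adjusted p = 0.0181). The last 2 calls were each lost in 4 of the 12 fits without 1 library, with adjusted p up to 0.056 and 0.0881.

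When the counts of all peaks of a gene were summed, 47 SLC genes were gained and 43 lost of 250 (18.8% and 17.2%). Of all 12636 protein-coding genes with a peak, 17.7% were gained and 15.6% lost. Among the 23 genes with gains and losses, 17 were not called on the sum, and the like share over all genes was not taken. Among genes with a mean sum of at least 30, the largest summed gain was at SLC8B1, the mitochondrial sodium-calcium exchanger, whose 2 peaks were both gained. Its sum rose from 16.6–31.5 (median 19.1) to 39.6–61.7 (median 51.7), by 1.33 ± 0.21 (adjusted p = 4.7e-09). SLC51A, SLC25A37 (0.88 ± 0.10), SLC13A2 and SLC44A1 (0.77 ± 0.12) followed. SLC13A2 encodes a sodium-dicarboxylate cotransporter, and its sum rose from 60.0–87.4 (median 77.4) to 118–158 (median 144), by 0.87 ± 0.12 (adjusted p = 1.4e-10).

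Under the same minimum, the largest summed losses were at SLC22A3, SLC30A10 and SLC18A1, which have 1 peak each and were described above, and at SLC22A7 and SLC66A1. SLC22A7 encodes the organic anion transporter OAT2, and its only peak, 6908 bp outside the gene and near CRIP3, gave sums of 43.9 to 64.2 (median 63.4) and 23.2 to 46.4 (median 34.8), at -0.79 ± 0.17 (adjusted p = 4e-05). The sum at SLC66A1 fell by 0.73 ± 0.16. SLC2A1 had the highest sum, 1024 to 1152 in the control (median 1078) and 906 to 1057 in the knockdown (median 926), at -0.19 ± 0.05 (adjusted p = 0.000291). A sum can hide its parts, as at SLC4A5, where the sum rose by 0.42 ± 0.10 through a peak 9222 bp outside the gene while the only peak inside it showed the largest loss of all SLC peaks.

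The 10 kb limit cut through like peaks. Just inside it lay a peak 9780 bp from SLC17A7 (-0.09, not called) and one 9774 bp from SLC27A3 (-0.34, lost). Just outside lay one 10018 bp from SLC25A22 (-0.37, lost) and one 10138 bp from SLC25A10 (0.20, not called).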

How the data were processed

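RUNX1 immunoprecipitates of THP-1 cells were measured by sequencing in 6 control and 6 knockdown libraries, and 8 IgG samples were not analysed here. According to the methods, the authors mapped the reads with Bowtie2, removed duplicates, called peaks with MACS2 on each condition and batch, kept the reproducible ones, merged those of both conditions and counted with featureCounts. The deposited table gives raw read counts per peak and library. The other deposited columns used here are the coordinates of each peak and its width in bp. The peaks were thus called on the libraries that are compared. Every library column was mapped by its name to 1 sample title. The methods name a mouse build for these human cells, and the coordinates were taken as GRCh38 and set against the RefSeq table of GRCh38.p14, which gives gene spans and no exons. No peak is therefore placed in an exon, intron or untranslated region.

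SLC genes were the protein-coding genes of that table with a symbol of SLC and a digit, and SLC peaks were those overlapping such a span or within 10 kb of it. DESeq2 1.42.0 (R 4.3.3) was fitted on the counts of all 26642 peaks with batch and genotype as terms and median-of-ratios size factors. A peak was called where its p after Benjamini-Hochberg adjustment was under 0.05 and its fold change over 1.1, the study's own thresholds, and p-values are adjusted over all peaks or, for the sums, over all 12636 genes. The same fit was made within each batch, with a genotype by batch product, and on counts summed over the peaks of each protein-coding gene, where size factors were estimated anew. edgeR 4.0.16 served as an alternative, and both tools were tested on simulated data. Any 2 libraries of a group were compared on their peaks of 20 or more joint reads, and the chi-square divided by its degrees of freedom was 1.29 to 2.24, above sampling noise. The p-values measure the spread between these libraries of 1 cell line. Control and knockdown cells carried different cassettes, so any other difference between these derivatives cannot be told apart from the knockdown.

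The members, the transport classes and the list of genes with roles in myeloid cells or leukemia metabolism were chosen with earlier results of these data known. Genes were named by rule. Among called peaks averaging 30 or more normalised counts with no overlap between the groups within either batch, the 10 largest gains and 10 largest losses were named. The 5 strongest peaks, the 5 genes with most peaks and the 5 genes with most calls among those with both directions were named too. So were the 5 largest summed gains and losses at a mean sum of at least 30. The called peaks of the myeloid and leukemia list and the peaks on either side of the 10 kb limit were added. The genotypes share replicate numbers 1 to 6, but number 3 lies in batch 1 for control and in batch 2 for knockdown. Deviations of same-numbered libraries from the means of their genotype and batch correlated at -0.129 to -0.0072, so the numbers were not treated as pairs. The 2 knockdown libraries of batch 1 deviate by mirrored amounts, which limits this check.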

Additional observations from a re-analysis of the deposited data

Results flagged for a closer look

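In 162 groups of 6 libraries at the named peaks and gene sums, 16 groups held a library whose gap to the nearest of the others was large for the group's range by Dixon's criterion, where chance gives about 1 in 20 groups (8.1 here). Control replicate 4, the shallowest library, was the one apart in 4 groups, and control replicate 1 in 3.

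At single peaks, in normalised counts, control replicate 1 stood at 370 over SLC33A2 (others 156 to 226) and at 28.6 at the SLC16A3 peak that starts at 82213095 (others 13.9 to 19). Control replicate 4 stood at 52 at the second SLC7A5 peak (others 17.9 to 27.7). At the peak over the upstream SLC3A2 start, control replicate 6 was lowest of its group at 109.5 (others 125.5 to 132.5), and knockdown replicate 6 lowest of its own at 81.1 (others 94.5 to 100.7). At the gained SLC7A7 peak, knockdown replicate 3 was highest at 43.9 (others 29.1 to 33.6).

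Among summed counts, control replicate 4 was high at SLC2A6 (31.5, others 6.81 to 15.4) and at SLC8B1 (31.5, others 16.6 to 22) and low at SLC29A3 (124, others 158 to 178). Control replicate 2 was high at SLC11A1 (104, others 71.6 to 83.1) and SLC39A8 (91.6, others 51.8 to 66.3), and control replicate 1 at SLC48A1 (38, others 6.81 to 15.8). At SLC19A1, control replicate 6 was high (174, others 134 to 146) and knockdown replicate 3 low (120.4, others 142 to 148). Knockdown replicate 6 was high at SLC16A1 (166, others 112 to 132) and knockdown replicate 1 at SLC1A5 (218, others 165 to 184). The calls at SLC33A2, SLC2A6 and SLC8B1 were kept without any 1 library, and the cause of these values was not tested.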

How the results depend on the processing

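The count of 192 called SLC peaks was 161 to 184 without any 1 library, 214 by edgeR and 182 after centring on 10 Mb windows, and the median log2 fold change ran from -0.088 to -0.051 without any 1 library. It fell to 68 at a fold change over 2 and to 102 (of 365 peaks tested) with at least 10 counts in every library, and rose to 410 (of 1037 peaks) with a window of 50 kb. Within batch 1, 50 calls became 119 by edgeR and 16 to 35 without 1 control library (19 without control replicate 2, 16 without control replicate 3, 35 without control replicate 1). Within batch 2, 113 became 174 by edgeR and 73 to 102 without 1 library (73 without control replicate 6). With the replicate number as a block, 128 peaks and 53 of the 90 summed genes were called. Number 3 lies in different batches in control and knockdown, however, and the numbers were not treated as pairs. Summed genes numbered 75 to 90 without any 1 library. No called peak among those run under the alternatives turned its direction. Uncalled peaks of named genes could, as at SLC22A16, where 1 ran from -0.172 to 0.131 in the fits without 1 library. Of 80 called peaks run under all alternatives, 58 kept their call without each library and 56 under every other fit. Of 21 called gene sums, 17 and 15 did. With only the peaks inside the gene span, 73 genes were called on their sum, and SLC4A5 went from gained to lost, by the construction of that sum. Depth limits weak peaks, since the median SLC peak held 20 to 52 reads per library.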
